A study of Saccharomyces cerevisiae with 6 samples.

Results

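Budding yeast of the thiol peroxidase null strain D8A was compared with the wild-type strain Wt-M11 (WT) across all features with a usable expression value. The 2 libraries titled D8A and the 2 titled Wt-M11 were chosen by title, 4 of the 6 libraries in the series, and the 2 libraries of a sister null strain, D8B, served to find the changes of D8A that D8B did not show. D8A and D8B carried one and the same genotype label, with mating type a, the auxotrophies his3, leu2, met15 and ura3, and deletions of 9 genes. These were TSA1 (marked with KAN), TSA2 (LEU2), DOT5 (MET15), AHP1 (HIS3), PRX1 (URA3), GPX1 (URA3), GPX2 (HYG), GPX3 (KAN, listed in the tables as HYR1) and SRX1 (NAT). WT was labelled MAT a with can1-100, trp1-1, ade2-1, his3-11,15, ura3 and leu2-3, together with GAL and [phi+]. In WT, HIS3 and KanMX6 had been placed on chromosome XI between positions 430900 and 431000, in the gap between YKL006C-A and YKL006W. All strains were labelled S288c and were grown in YPD, a rich medium with glucose, and polyadenylated RNA was sequenced. The labels do not say how D8A and D8B differ. Because the marker genes of the null strains and of WT also differ, the 9 deletions and the strain background cannot be told apart in any comparison with WT.

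Thiol peroxidases reduce hydrogen peroxide and organic peroxides through a reactive cysteine, and they draw their electrons mainly from thioredoxin. Yeast has peroxiredoxins in the cytosol (Tsa1, Tsa2, Ahp1), the nucleus (Dot5) and the mitochondrion (Prx1), and glutathione peroxidase-like enzymes (Gpx1, Gpx2 and Hyr1). Srx1 repairs over-oxidised peroxiredoxins, and Hyr1 passes the peroxide signal to Yap1, the transcription factor of the oxidative stress response.

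Expression was deposited as FPKM, the number of sequenced fragments divided by feature length and by the library's mapped total. The depth estimated from the deposited intervals was 4.02 M and 8.06 M fragments in the D8A libraries, 14.2 M and 10.6 M in D8B and 9.15 M and 10.1 M in WT, so D8A replicate 1 was the shallowest. It also had the most features listed at 0, 258 against 108 to 140 in the other libraries, and the D8A libraries were less alike (r = 0.938 across features, which are not independent) than the WT libraries (0.976). The median of all 6925 features relative to the WT mean was -0.15 on the log2 scale in D8A replicate 1 and 0.13 in D8A replicate 2, so gene lists below are also given relative to that median in each library. The genes of mating type a were expressed as labelled, with STE2, the receptor for alpha-factor, at 113 and 176 FPKM in D8A and 138 and 127 FPKM in WT, and the alpha-factor gene MF(ALPHA)1 at 3.38 and 4.64 FPKM in D8A and 3.34 and 5.38 FPKM in WT. Whether replicates are separate cultures is not in the labels, so the p-values weigh differences against a spread between libraries that may be technical only. Changes are differences of log2(FPKM + 1), which understate the change of weakly expressed genes, and p-values are from limma with Benjamini-Hochberg adjustment over all features tested. In bulk RNA, fewer cells with a transcript and less of it per cell cannot be told apart.

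The genes of the deletions were examined first. TSA1, the main cytosolic peroxiredoxin, had 6.42 and 9.94 FPKM in D8A against 2029 and 1723 FPKM in WT. AHP1 had 0.76 and 0.38 FPKM in D8A against 1629 and 1467 FPKM in WT, and TSA2 0.64 and 0.32 FPKM against 33.3 and 33.4 FPKM. DOT5 and HYR1 were listed at 0 in D8A replicate 1 and had 0.28 and 0.43 FPKM in D8A replicate 2, against 134 and 134 FPKM and 324 and 308 FPKM in WT. PRX1, GPX1 and GPX2 were listed at 0 in both D8A libraries. These 8 genes were thus at or near 0 in D8A. SRX1 went against its label, with 319 and 415 FPKM in D8A and 654 and 584 FPKM in D8B, against 52.8 and 76.8 FPKM in WT (log2 change in D8A 2.50 ± 0.27 SE, adjusted p = 0.00248). From here on, D8A and D8B therefore stand for the libraries labelled so, and every direction rests on labels with which 8 of the 9 targeted genes accord and SRX1 does not. Of 7 marker genes, MET17 (called MET15 in the labels) had 100 and 122 FPKM in D8A against 456 and 580 FPKM in WT, and LEU2 63.9 and 56.5 FPKM against 141 and 137 FPKM. MET17 fell by 2.21 (adjusted p = 0.00226) and LEU2 by 1.2 (adjusted p = 0.0144), ADE2 rose by 1.30 (adjusted p = 0.00985) and HIS3 by 0.99 (adjusted p = 0.0438), while URA3, TRP1 and CAN1 did not pass. The calls of LEU2, ADE2 and HIS3 were lost without WT replicate 1 or WT replicate 2 (adjusted p up to 0.16, 0.129 and 0.348), and that of HIS3 without any 1 of the 6 libraries.

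Across the genome, 350 of 6925 features (5.05%) differed between D8A and WT, of which 85 (1.23%) were higher and 265 (3.83%) lower in D8A. Over the features of 300 bp or more, 314 of 6177 (5.08%) differed. Both D8A libraries lay beyond both WT libraries, in either direction, in 51.4% of all features. With 2 libraries a strain, such separation also arises often without a difference between strains, so this share is not a count of changes. Without 1 library at a time the count ran from 90 (without WT replicate 2) to 473 (without D8A replicate 2), with 142 without WT replicate 1 and 198 without D8A replicate 1. Of the features that differed, 76 (17 higher, 59 lower) also passed each time 1 of the 6 libraries was left out.

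**Figure D1:**
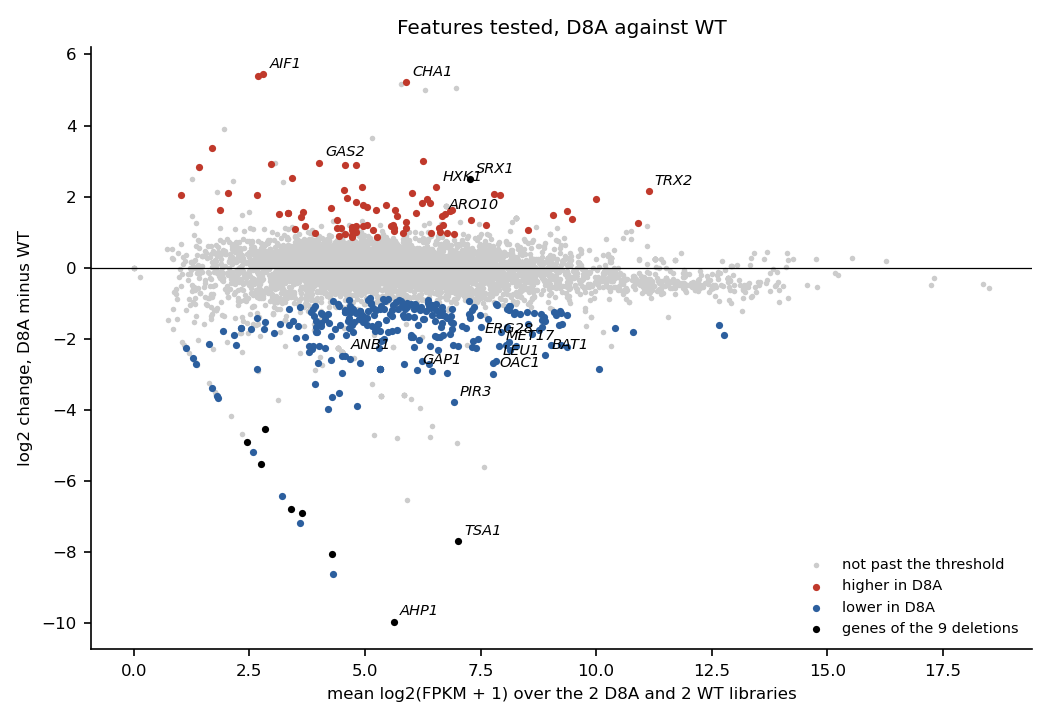
Each point is 1 of the 6925 features tested, with its mean log2(FPKM + 1) over the 2 D8A and 2 WT libraries on the x axis and the log2 change of D8A minus WT on the y axis. Red marks the 85 higher and blue the 265 lower features, except the genes of the 9 deletions, which are black, with 8 below and SRX1 above 0.

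The largest rises among well-measured genes were in enzymes and surface proteins of several kinds. CHA1, the serine and threonine deaminase that breaks these amino acids down, had 304 and 423 FPKM in D8A against 7.46 and 10 FPKM in WT, a log2 change of 5.22 ± 0.25 (SE, adjusted p = 3.43e-05). GAS2, a glucan-remodelling enzyme of the wall, had 46.7 and 41.5 FPKM in D8A against 4.25 and 5.40 FPKM in WT (2.96 ± 0.27, adjusted p = 0.00128). In D8B, CHA1 was at 196 and 235 FPKM, below both D8A libraries and above WT, and GAS2 at 30.3 and 50.8 FPKM. IZH4, a membrane protein linked to zinc, had 97.7 and 57.4 FPKM in D8A against 7.88 and 10.6 FPKM in WT. HXK1, a hexokinase kept low on glucose, had 201 and 206 FPKM in D8A against 43.9 and 39.2 FPKM in WT (2.26 ± 0.23, adjusted p = 0.00197). D8B lay between the other strains for HXK1, at 97.6 and 69.3 FPKM. TIP1, a wall mannoprotein, had 505 and 406 FPKM in D8A against 97.5 and 115 FPKM in WT (2.09 ± 0.27, adjusted p = 0.00508), a call lost without WT replicate 1 (adjusted p = 0.0516). The poorly characterised YMR320W, YDR274C, YLR232W and YLR108C rose by 2.93, 2.9, 2.28 and 2.1 on the log2 scale. YLR108C (chromosome XII, 366667 to 368124) lies close to the deleted AHP1 (368781 to 369311), and a local effect of that deletion was not tested. YLR232W shares 290 bp with BNA5, whose reads cannot be told apart from its own where counting ignores strand.

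Several genes near chromosome ends, picked out after their values were seen, were among those far apart between D8A and WT. Near the left end of chromosome VII, COS12 had 35.2 and 47.0 FPKM in D8A and its neighbour YGL262W 4.60 and 8.04 FPKM, and both were listed at 0 in both WT libraries. Near the right end of chromosome XIV, PDR18, a drug pump gene, had 3.27 and 2.97 FPKM in D8A and YNR071C 7.83 and 11.1 FPKM, and both were again listed at 0 in WT. AIF1, a few genes further out, had 36.5 and 54.7 FPKM in D8A against 0 and 0.106 FPKM in WT (adjusted p = 2.60e-05). COS12, YGL262W, PDR18 and YNR071C were the 4 features of 300 bp or more listed at 0 in both WT libraries and above 0 in both D8A libraries, and all were above 0 in D8B as well. In the other direction, YCR099C, YCR100C and YCR101C, which adjoin one another near the right end of chromosome III, had 2.16 to 6.59 FPKM in D8A against 56.2 to 135 FPKM in WT, with log2 changes of -3.88, -3.63 and -3.97 (adjusted p = 0.00248, 0.000643 and 0.0016). YNR065C and YNR066C, sortilin-like genes that adjoin one another on chromosome XIV, had 7.53 and 6.63 FPKM and 6.73 and 4.37 FPKM in D8A against 48.9 and 78.2 FPKM and 54.2 and 97.1 FPKM in WT. Away from the ends, YLR302C, which overlaps MET17, the gene of the met15 marker, by 12 bp on chromosome XII, was listed at 0 in all 4 D8A and D8B libraries and had 24.0 and 50.8 FPKM in WT. Whether such genes differ by the deletions or by strain background cannot be told apart, and members of repeated families near the ends can share reads with their copies.

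Falls were frequent in several lists of amino acid synthesis genes, beside 3.83% lower over all features. In the synthesis of leucine, isoleucine and valine, 8 of the 12 listed genes fell and none rose, with a median log2 change of -1.39, where the median of all features was -0.01. LEU1, the isopropylmalate isomerase, had 81.8 and 102 FPKM in D8A against 522 and 619 FPKM in WT (log2 change -2.62 ± 0.24 SE, adjusted p = 0.0012). BAT1, the mitochondrial branched-chain aminotransferase, had 193 and 213 FPKM in D8A against 1028 and 1197 FPKM in WT (-2.45 ± 0.23, adjusted p = 0.0016). No D8A library came near a WT library for either gene. ILV2, the catalytic subunit of acetolactate synthase, had 123 and 146 FPKM in D8A against 527 and 627 FPKM in WT (-2.09 ± 0.23, adjusted p = 0.00252). OAC1, a mitochondrial carrier of oxaloacetate that also moves a leucine precursor, had 67.4 and 88.7 FPKM in D8A against 626 and 603 FPKM in WT (-2.97 ± 0.23, adjusted p = 0.000464). These 4 calls also passed when any 1 library was left out. LEU4, ILV6, ILV3 and LEU9 were the other members that fell, by 1.80, 1.48, 1.29 and 0.90, and each of these calls was lost without WT replicate 2. ILV5 had 1184 and 1183 FPKM in D8A against 1290 and 1370 FPKM in WT and did not pass (adjusted p = 0.74), and BAT2, the cytosolic aminotransferase, had 306 and 376 FPKM in D8A against 221 and 207 FPKM in WT (0.67, adjusted p = 0.164). LEU3, the gene of the pathway's own regulator, had 16.8 and 15.2 FPKM in D8A against 15.7 and 20 FPKM in WT, with no change past the threshold. By the labels WT was leu2-3, while the null strains carried leu2 and LEU2 as the marker of the TSA2 deletion. That difference in a leucine gene and the deletions cannot be told apart in these falls.

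The sequences before these genes show what some of them share. Leu3 binds CCGG and CCGG set 2 bases apart, and a match lay within 500 bases before the start codon of 4 of the 12 genes (LEU1, BAT1, ILV2 and ILV5), 3 of them among the 8 that fell, against 0.267% of 6000 such stretches over the genome, searched on both strands. The motifs and the genes shown were chosen after the values were seen, and a match is a description of the sequence only. The stretches below are from the RefSeq assembly R64, 5′ to 3′ on the strand of the gene, 150 bases each, with the Leu3 match in capitals.
LEU1, chrVII:478790-478939, minus strand: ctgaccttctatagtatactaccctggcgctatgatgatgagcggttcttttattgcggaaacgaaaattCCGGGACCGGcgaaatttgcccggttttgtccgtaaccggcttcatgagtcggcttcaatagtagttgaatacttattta
BAT1, chrVIII:517315-517464, plus strand: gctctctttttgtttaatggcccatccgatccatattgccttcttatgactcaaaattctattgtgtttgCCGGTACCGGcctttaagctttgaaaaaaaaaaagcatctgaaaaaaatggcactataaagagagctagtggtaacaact
ILV2, chrXIII:483584-483733, plus strand: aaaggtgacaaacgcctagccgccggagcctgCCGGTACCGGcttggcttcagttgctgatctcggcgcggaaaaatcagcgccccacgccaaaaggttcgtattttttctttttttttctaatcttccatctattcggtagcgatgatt
The match lay 217 bases before the start codon of LEU1, 147 before that of BAT1 and 468 before that of ILV2.

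Arginine synthesis fell as broadly. Of 9 listed genes 7 fell and none rose, where 3.83% of all features were lower, with a median log2 change of -1.24. ARG7, the mitochondrial ornithine acetyltransferase, had 67.5 and 85.5 FPKM in D8A against 332 and 404 FPKM in WT (-2.25 ± 0.25 SE, adjusted p = 0.00252), and its call passed whichever library was left out. ARG4, the argininosuccinate lyase, had 126 and 161 FPKM in D8A against 632 and 694 FPKM in WT (-2.21 ± 0.27, adjusted p = 0.00443). ARG1, the argininosuccinate synthetase, had 240 and 268 FPKM in D8A against 734 and 875 FPKM in WT (-1.66 ± 0.23, adjusted p = 0.00633). ARG3, the ornithine carbamoyltransferase, had 92.6 and 100.4 FPKM in D8A against 214 and 265 FPKM in WT (-1.29 ± 0.27, adjusted p = 0.0384). Without WT replicate 2 the calls of ARG4, ARG1 and ARG3 were lost (adjusted p up to 0.0522, 0.102 and 0.317), that of ARG3 also without WT replicate 1 or either D8A library. ARG2, ORT1 and ARG8 also fell, calls likewise lost without WT replicate 2, whereas CPA1 and ARG5,6 did not pass, with log2 changes of -0.60 and -0.97. Of 6 listed histidine genes, 4 fell in D8A and 1 in D8B (median log2 change -1.26 and -0.66), where D8B differed from WT in 4.9% of all features and was lower in 3.68%. HIS4, which encodes an enzyme of several steps, had 76.8 and 78.7 FPKM in D8A, 174 and 153 FPKM in D8B and 283 and 380 FPKM in WT, a log2 change in D8A of -2.06 ± 0.23 (adjusted p = 0.00281). The direct difference of D8A from D8B did not pass for any histidine gene. HIS5, HIS1 and HIS7 fell by 1.73, 1.38 and 1.13, calls that were lost without WT replicate 2 (adjusted p up to 0.0855, 0.159 and 0.21). Without WT replicate 1 HIS1 and HIS7 were lost too, and HIS1 without D8A replicate 1. The 2 D8A libraries gave nearly the same medians relative to all features, -1.20 and -1.15 for arginine genes and -1.21 and -1.28 for histidine genes.

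**Figure D2:**
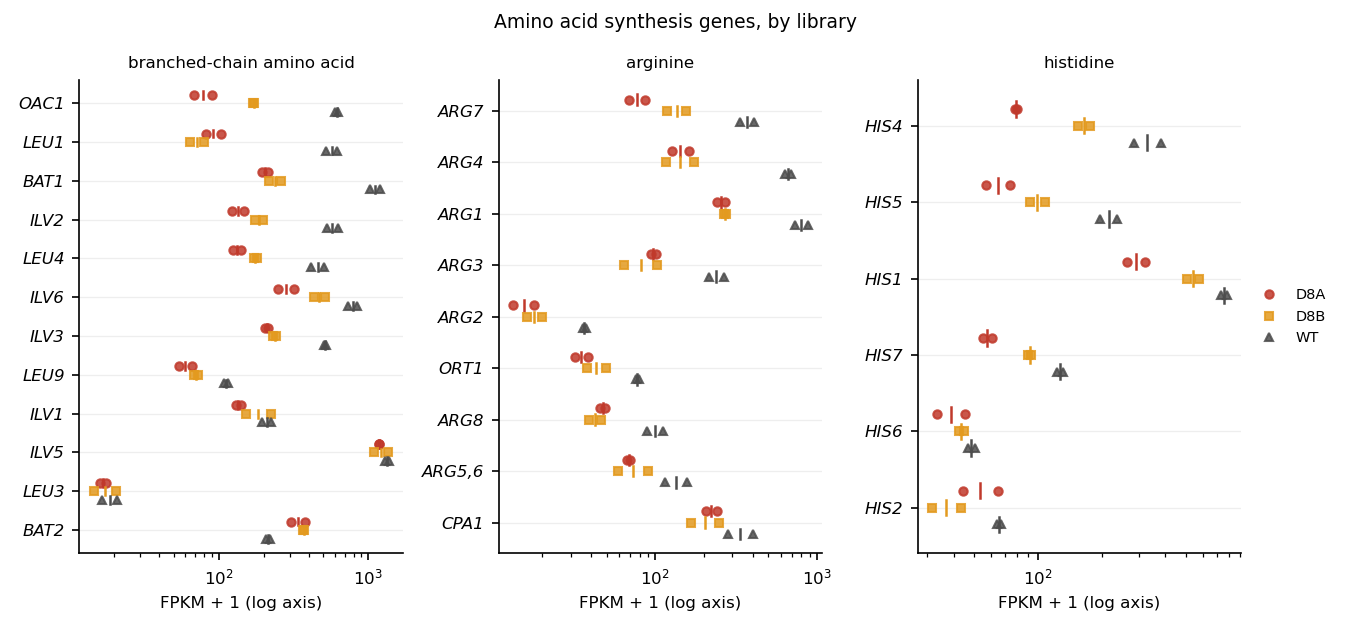
FPKM + 1 of each listed gene of branched-chain amino acid, arginine and histidine synthesis on a log x axis, with 2 points per strain (D8A circles, D8B squares, WT triangles) and a tick at their geometric mean. D8A points lie left of both WT points for most genes, with LEU1 at 81.8 and 102 FPKM in D8A and 522 and 619 FPKM in WT.

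Gcn4, the activator of amino acid synthesis genes, binds TGACTC. All 9 arginine genes, 10 of the 12 branched-chain genes and 5 of the 6 histidine genes had this motif on either strand within 500 bases before the start codon, against 12.7% of the 6000 stretches. Of 15 genes of aromatic amino acid synthesis and breakdown 6 had it, and 3 of the 8 called in that list. HIS4 is shown, with 3 matches in 150 bases (R64, minus strand, matches in capitals).
HIS4, chrIII:68455-68604, minus strand: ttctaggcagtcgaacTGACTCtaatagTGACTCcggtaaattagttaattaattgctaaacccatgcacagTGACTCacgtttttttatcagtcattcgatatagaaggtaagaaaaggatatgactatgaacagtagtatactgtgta

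Genes of aromatic amino acid synthesis and breakdown changed in both directions. Of 15 listed genes, 6 fell and 2, ARO9 and ARO10, rose, and 7 did not pass. For this and the next lists, 3.83% of all features were lower and 1.23% higher. ARO4 and ARO3, the paired enzymes of the first step, had 329 and 382 FPKM and 109 and 134 FPKM in D8A, against 1027 and 1094 FPKM and 329 and 337 FPKM in WT (log2 changes -1.58 ± 0.23 and -1.45 ± 0.22, adjusted p = 0.00942 and 0.00947). TRP4 and TRP2 of tryptophan synthesis fell by 1.34 and 1.18. ARO8 and TYR1 fell by 1.16 and 1.07, calls lost without either WT library. Calls of ARO4, ARO3, TRP4 and TRP2 were lost without WT replicate 1 or WT replicate 2 (adjusted p up to 0.13, 0.123, 0.159 and 0.294). Lysine synthesis, by contrast, had 1 rise (LYS20, homocitrate synthase, 536 and 516 FPKM in D8A against 236 and 272 FPKM in WT) and no fall among 9 genes, with a median of -0.15. The LYS20 call (adjusted p = 0.037) was lost in every fit with 1 library left out except that without D8A replicate 2 (adjusted p up to 0.307). Of 27 genes of serine, threonine, glycine and glutamate metabolism, CHA1 rose and 4 fell. HOM2, the aspartate semialdehyde dehydrogenase, had 270 and 341 FPKM in D8A against 1400 and 1453 FPKM in WT (-2.23 ± 0.26, adjusted p = 0.0036), and SER3, the first enzyme of serine synthesis, 56.7 and 53.1 FPKM against 240 and 267 FPKM (-2.18 ± 0.23, adjusted p = 0.00248). HOM3, the aspartate kinase, and GDH1, a glutamate dehydrogenase that assimilates ammonium, fell by 1.56 and 1.58, calls lost without WT replicate 2 (adjusted p up to 0.105 and 0.109), that of GDH1 also without WT replicate 1.

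Sulphur uptake into amino acids was lower as well. All 10 listed genes of sulphate assimilation lay below 0, 5 of them past the threshold, with a median log2 change of -0.90. Over all features, 3.83% were lower and 1.23% higher. MET16, the reductase of activated sulphate, had 14.9 and 24.3 FPKM in D8A against 80.9 and 83.9 FPKM in WT (-2.05 ± 0.25 SE, adjusted p = 0.00409) and passed whichever library was left out. MET3, MET10, MET14 and MET22 fell by 1.52, 1.42, 1.02 and 0.95, and these calls were lost without WT replicate 2 or D8A replicate 1 (adjusted p up to 0.136, 0.225, 0.356 and 0.366). MET14 and MET22 were further lost without WT replicate 1 or either D8B library, and MET10 without D8A replicate 2. Among 24 genes of the methionine cycle and transsulphuration 5 fell and none rose, beside the same 3.83% and 1.23% of all features. MET6, methionine synthase, had 37.9 and 31.4 FPKM in D8A, 55.9 and 109 FPKM in D8B and 136 and 154 FPKM in WT (-2.04 ± 0.31, adjusted p = 0.0112), a call lost without either WT library or D8A replicate 1 (adjusted p up to 0.0958). STR3, MET13, STR2 and MET2 fell by 1.98, 1.5, 1.35 and 1.26, and each was lost without WT replicate 2 (adjusted p up to 0.0796, 0.126, 0.136 and 0.159). By the labels the null strains carry met15 among their auxotrophies and also MET15 as the marker of the DOT5 deletion. MET17, the gene called MET15 in the labels, had 100 and 122 FPKM in D8A against 456 and 580 FPKM in WT. These marker differences and the deletions cannot be told apart in these falls.

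Some genes held down by good nitrogen sources were lower in D8A. Of 26 listed genes 9 fell and 1 rose, where 3.83% and 1.23% of all features did, with a median log2 change of -0.50 that was -0.30 without D8A replicate 1 and -0.79 without D8A replicate 2. GAP1, the general amino acid permease, had 24.8 and 24.4 FPKM in D8A, 21.8 and 23.0 FPKM in D8B and 207 and 168 FPKM in WT (-2.87 ± 0.19 SE, adjusted p = 0.000254). ASP3-1, a wall asparaginase, had 12.6 and 15.8 FPKM in D8A against 107 and 106 FPKM in WT (-2.83 ± 0.19), and its identical copies ASP3-2, ASP3-3 and ASP3-4 carried the same values, so they count as 1 measurement. Both falls passed whichever library was left out. DAL80, a repressor of the same genes, had 3.69 and 7.78 FPKM in D8A against 28.5 and 28.7 FPKM in WT (-2.21, adjusted p = 0.00857), and it shares 407 bp with another feature. PUT1, proline oxidase, had 21.7 and 24.6 FPKM in D8A against 66.3 and 104 FPKM in WT (-1.80, adjusted p = 0.00787), with D8B lower still at 10.5 and 8.04 FPKM. The calls of DAL80 and PUT1 were lost without WT replicate 2 (adjusted p up to 0.068 and 0.0793). MEP3, an ammonium permease, was the member that rose, with 88.3 and 81.3 FPKM in D8A against 29.9 and 31.1 FPKM in WT (1.44, adjusted p = 0.0486), a call lost without either WT or either D8A library (adjusted p up to 0.261). Among 21 amino acid and peptide permeases, TAT1 was higher and GAP1 and AGP1 were lower, against 5.05% of all features called. TAT1 was lost without any 1 library (adjusted p up to 0.317) and AGP1 without either WT library or D8A replicate 1 (adjusted p up to 0.162).

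A few of the oxidative stress genes rose. Of 20 listed Yap1 targets, TRX2, AAD6, AAD16 and AAD4 rose and AAD10 fell, where 1.23% of all features were higher and 3.83% lower. The list had a median log2 change of 0.47 and 16 members above 0. All 4 rises were lost without WT replicate 2, and AAD6 and AAD16 adjoin one another and may share reads. TRX2, the cytosolic thioredoxin that feeds electrons to peroxiredoxins, had 3997 and 5594 FPKM in D8A, 7943 and 4913 FPKM in D8B and 1220 and 932 FPKM in WT (log2 change in D8A 2.15 ± 0.34 SE, adjusted p = 0.012). Every D8A library exceeded every WT library, although the call was lost without WT replicate 1 or WT replicate 2 (adjusted p up to 0.148). AAD4 and AAD10, putative aryl-alcohol dehydrogenases, had 34.9 and 39.4 FPKM and 11.8 and 11.2 FPKM in D8A against 17.1 and 17.5 FPKM and 31.9 and 44.0 FPKM in WT, so copies of this family went opposite ways. Their calls were lost without WT replicate 2 (adjusted p up to 0.183 and 0.0938), that of AAD4 also without WT replicate 1. Well-known targets did not pass, among them GSH1, the first enzyme of glutathione synthesis (111 and 105 FPKM in D8A against 66.3 and 56.1 FPKM in WT, adjusted p = 0.0647), OYE2 (adjusted p = 0.171), GLR1 (adjusted p = 0.718) and TRR1 (adjusted p = 0.985). SOD1, the cytosolic superoxide dismutase, had 2813 and 3828 FPKM in D8A against 1691 and 1247 FPKM in WT (1.18 ± 0.32, adjusted p = 0.0956). None of 7 catalase, superoxide dismutase and related genes passed. CTT1, the cytosolic catalase, had 6.02 and 9.11 FPKM in D8A against 7.36 and 7.92 FPKM in WT, with overlapping values. CCP1, the mitochondrial cytochrome c peroxidase, had 341 and 606 FPKM in D8A against 197 and 173 FPKM in WT (1.30 ± 0.31, adjusted p = 0.062), and in D8B its rise of 1.40 passed (adjusted p = 0.0474), while the difference of D8A from D8B did not pass (adjusted p = 0.95). UTH1, a protein of the SUN family, had 1209 and 1094 FPKM in D8A against 337 and 433 FPKM in WT (1.59 ± 0.31, adjusted p = 0.0319), a call lost without any of the 4 D8A and WT libraries (adjusted p up to 0.213). Of 24 thioredoxin, glutaredoxin and glutathione genes, 8.33% were called, against 5.05% of all features. GTT1, a glutathione transferase, was lower (36.2 and 57.0 FPKM in D8A against 120.4 and 131 FPKM in WT), and TRX2 was the only one that rose. GTT1 (chromosome IX, 423809 to 424513) lies close to the deleted HYR1 (423128 to 423619), and a local effect of that deletion was not tested. The GTT1 call was lost without either WT library or D8A replicate 1. ALD6, a cytosolic aldehyde dehydrogenase that makes NADPH, had 1830 and 2185 FPKM in D8A against 577 and 466 FPKM in WT (1.95 ± 0.26, adjusted p = 0.00587), a call lost without WT replicate 2 (adjusted p = 0.0958).

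**Figure D3:**
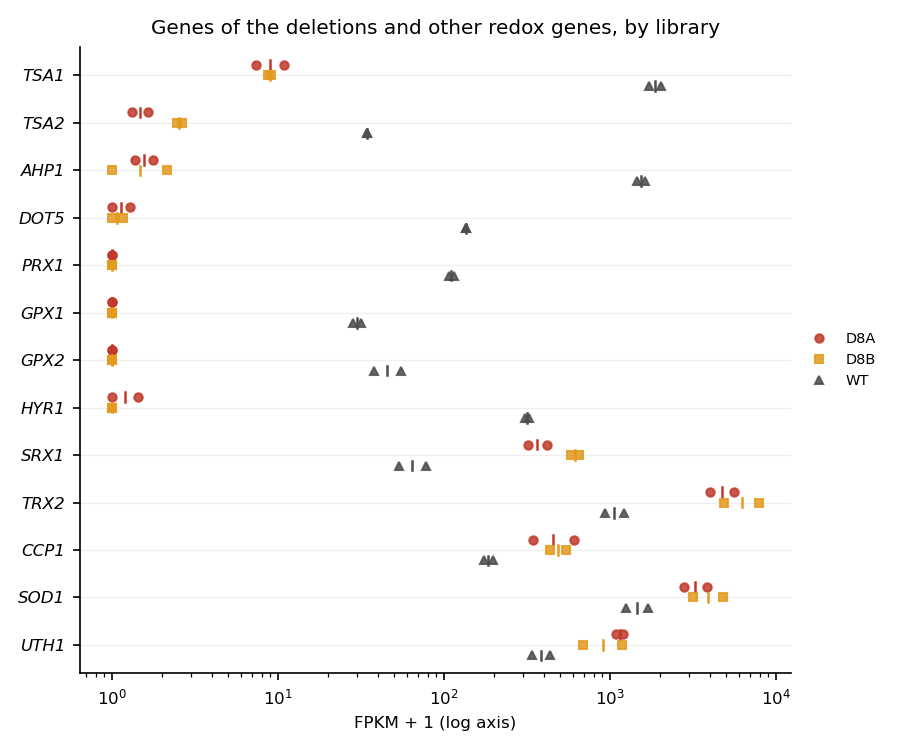
FPKM + 1 on a log x axis of the 9 genes of the deletions and of TRX2, CCP1, SOD1 and UTH1, with 2 points per strain (D8A circles, D8B squares, WT triangles) and a tick at their geometric mean. The 8 peroxidase genes lie at or near 0 FPKM in D8A, and SRX1 lies at 319 and 415 FPKM in D8A against 52.8 and 76.8 FPKM in WT.

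Yap1 binds TTACTAA and TTAGTAA, and 1 of these lay within 500 bases before the start codon in 9 of 18 target genes with a stretch to search, against 11.8% of the 6000 stretches. The 2 motifs are reverse complements of each other, so each match is 1 site read on either strand. The 2 sites before TRX2 both fall in the part shown (R64, minus strand, matches in capitals).
TRX2, chrVII:913331-913480, minus strand: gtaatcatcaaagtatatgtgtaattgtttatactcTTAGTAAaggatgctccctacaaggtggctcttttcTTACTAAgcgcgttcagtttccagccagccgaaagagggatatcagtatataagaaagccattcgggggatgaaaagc

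Cell wall genes were lower at several points, where 3.83% of all features were lower and 1.23% higher. Of 7 PIR and SED1 wall proteins 3 fell, and none rose, with a median log2 change of -1.09. PIR3, a wall glycoprotein bound to glucan, had 31.0 and 32.2 FPKM in D8A, 35.5 and 38.6 FPKM in D8B and 367 and 546 FPKM in WT (-3.78 ± 0.24 SE, adjusted p = 0.000234), and it passed whichever library was left out. SED1 had 885 and 1007 FPKM in D8A against 2400 and 4557 FPKM in WT (-1.81, adjusted p = 0.0285), where WT replicate 2 stood well above WT replicate 1, and PIR1 fell by 1.21. Both calls were lost without WT replicate 2 or either D8A library (adjusted p up to 0.233 and 0.332). Of 23 genes of the cell wall integrity pathway 5 fell and none rose. KDX1, a kinase-like protein whose gene the pathway induces, had 29.0 and 34.7 FPKM in D8A against 206 and 218 FPKM in WT (-2.70 ± 0.21, adjusted p = 0.000572). YLR194C, a wall protein, had 101 and 152 FPKM in D8A against 601 and 652 FPKM in WT (-2.32 ± 0.26, adjusted p = 0.00253). Both passed whichever library was left out. PRM5 and PST1 fell by 2.21 and 1.88 (lost without WT replicate 2, adjusted p up to 0.0537 and 0.0938), and SLT2, the MAP kinase of the pathway, by 1.17 (lost without either WT library or D8A replicate 1, adjusted p up to 0.262). Among 35 genes of glucan and chitin synthesis 6 fell, with BGL2, an endoglucanase of the wall, at 670 and 861 FPKM in D8A against 2271 and 2663 FPKM in WT (-1.69, adjusted p = 0.00994). All 6 of these calls were lost without either WT library. GAS2, UTH1 and NCA3 of the same list rose. NCA3, like UTH1 of the SUN family, had 22.1 and 19.6 FPKM in D8A, 8.02 and 8.35 FPKM in D8B and 5.80 and 6.83 FPKM in WT (1.58 ± 0.22, adjusted p = 0.00638). The calls of BGL2 and NCA3 were lost without WT replicate 1 (adjusted p up to 0.145 and 0.0547), that of BGL2 also without WT replicate 2.

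Sterol synthesis was lower in D8A at the level of the list, and few members passed. Of 25 ergosterol genes 23 lay below 0 in D8A, with a median log2 change of -0.51, while the median in D8B against WT was -0.02. The strains D8A and D8B share the same WT libraries in these values. ERG28, a scaffold that holds the C-4 demethylation enzymes together, had 90.0 and 81.2 FPKM in D8A, 269 and 253 FPKM in D8B and 388 and 313 FPKM in WT (log2 change in D8A -2.02 ± 0.22 SE, adjusted p = 0.00252). ERG2, the sterol isomerase, had 312 and 364 FPKM in D8A, 998 and 771 FPKM in D8B and 1064 and 988 FPKM in WT (-1.60 ± 0.25, adjusted p = 0.0114). CYB5, the cytochrome b5 that donates electrons to sterol enzymes, had 219.7 and 251 FPKM in D8A, 382 and 311 FPKM in D8B and 628 and 501 FPKM in WT (-1.25, adjusted p = 0.0304). All 3 were lowest in D8A with no overlap with either other strain. The ERG28 call passed whichever library was left out, and those of ERG2 and CYB5 were lost without either WT library or D8A replicate 1 (adjusted p up to 0.114 and 0.234). The sterol element TCGTATA, bound by Upc2 and Ecm22, lay on either strand before 9 of the 25 genes, ERG28, ERG2 and CYB5 among them, against 7% of the 6000 stretches. The stretches around the match before ERG28 and ERG2 are shown (R64, strand of the gene, match in capitals, which for ERG28 is the reverse complement).
ERG28, chrV:238217-238366, minus strand: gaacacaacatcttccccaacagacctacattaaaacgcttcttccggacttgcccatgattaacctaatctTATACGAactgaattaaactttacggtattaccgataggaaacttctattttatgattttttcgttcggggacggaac
ERG2, chrXIII:667280-667429, plus strand: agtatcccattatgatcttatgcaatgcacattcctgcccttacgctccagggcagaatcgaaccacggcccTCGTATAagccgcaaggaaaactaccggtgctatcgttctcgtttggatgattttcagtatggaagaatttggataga

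Of 19 hypoxic and anaerobic genes 6 fell and none rose, where 3.83% of all features were lower and 1.23% higher. The list was mixed, with 8 members above 0 and 11 below, and a median log2 change of -0.30. That median was -0.69 without WT replicate 1 and 0.10 without WT replicate 2. ANB1, the hypoxic form of a translation factor, had 7.36 and 11.0 FPKM in D8A, 36.1 and 21.4 FPKM in D8B and 48.2 and 61.7 FPKM in WT (-2.47 ± 0.30 SE, adjusted p = 0.00443) and passed whichever library was left out. It has a close paralog, so its reads may be split. CYC7, the minor form of cytochrome c, had 17.9 and 24.1 FPKM in D8A against 80.1 and 67.5 FPKM in WT (-1.78 ± 0.23, adjusted p = 0.00534), a call lost without WT replicate 1 (adjusted p = 0.0516). AAC3, COX5B, TIR3 and EUG1 fell by 1.5, 1.36, 1.24 and 0.87, and each was lost without either WT library or D8A replicate 1 (adjusted p up to 0.225, 0.182, 0.332 and 0.456), with TIR3 and EUG1 also lost without D8A replicate 2 and EUG1 without either D8B library. TIR3 lies on chromosome IX, as does the deleted DOT5, and a local effect of that deletion on TIR3 was not tested. HEM13, a haem enzyme that marks low oxygen, had 91.1 and 98.4 FPKM in D8A against 86.7 and 86.1 FPKM in WT (adjusted p = 0.755).

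In some lists nearly all members lay on one side of 0 with few or none past the threshold. None of 137 cytosolic ribosomal protein genes passed, yet all 137 lay below 0, with a median log2 change of -0.46. Relative to all features in each library, that median was -0.53 in D8A replicate 1 and -0.37 in D8A replicate 2. The median log2 change was -0.24 without D8A replicate 1 and -0.13 after quantile normalization. In the vacuolar proton pump all 15 subunit genes lay below 0 (median -0.41), and VMA7 alone passed (320.3 and 387 FPKM in D8A against 906 and 775 FPKM in WT), a call lost without any 1 D8A or WT library (adjusted p up to 0.293). Among 35 proteasome genes 34 lay above 0 (median 0.39, none past the threshold), among 28 genes of inositol and phospholipid synthesis 25 did (median 0.33, none), and among 86 genes of ribosome biogenesis 70 did (median 0.24, none). Without D8A replicate 2 the proteasome median was 0.20 and that of ribosome biogenesis 0.05, which was 0.44 without D8A replicate 1. The proton pump median was -0.26 without D8A replicate 1 and -0.24 after quantile normalization. Genes of a list share regulators and are not independent, and no test was made of these medians. Over all features tested, 3413 lay above and 3507 below 0.

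**Figure D4:**
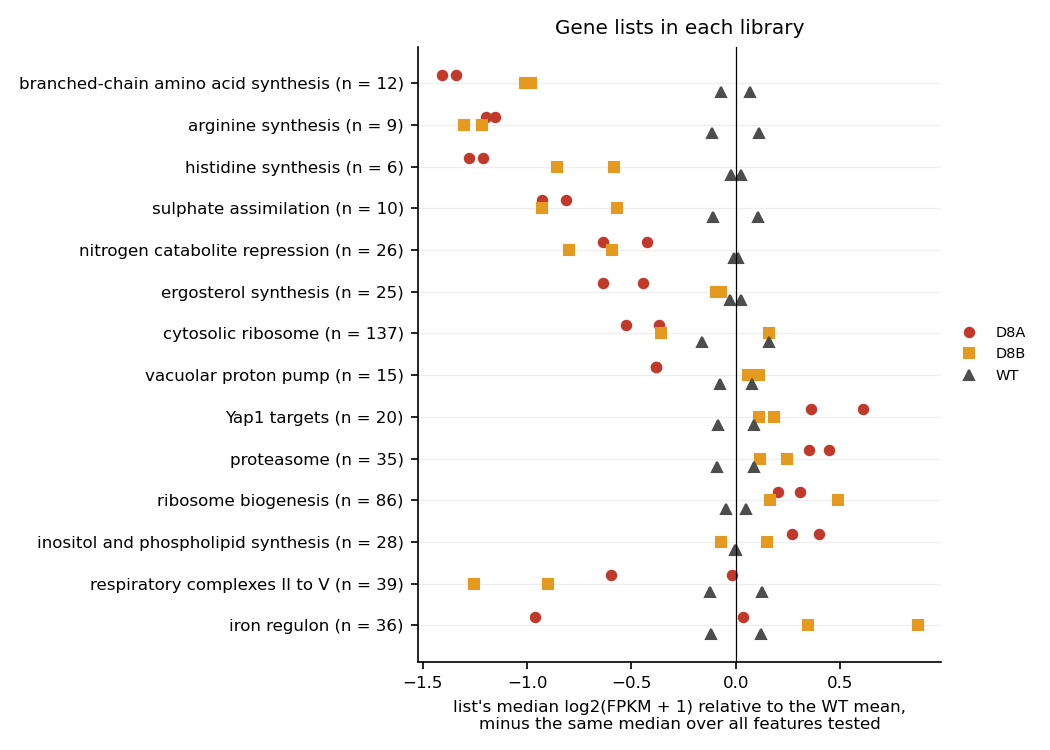
For each gene list, the median log2(FPKM + 1) of its members relative to the WT mean, minus the same median over all features, in each library (D8A circles, D8B squares, WT triangles). Branched-chain amino acid, arginine and histidine genes lie from -1.41 to -1.15 in both D8A libraries, while the D8A libraries stand apart from each other for the iron regulon (0.03 and -0.96) and for respiratory complexes (-0.60 and -0.02).

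The D8A libraries were furthest apart in 3 of the lists. The PAU seripauperins, 24 closely related wall protein genes that can share reads, had a median relative to all features of -0.30 in D8A replicate 1 and -0.96 in D8A replicate 2. For 39 genes of respiratory complexes II to V the median relative to all features was -0.60 in D8A replicate 1 and -0.02 in D8A replicate 2, and CYC7 and COX5B, both isoforms used at low oxygen, were the members that fell. CYC1, the main cytochrome c, had 317 and 759 FPKM in D8A, 371 and 163 FPKM in D8B and 1114 and 841 FPKM in WT (adjusted p = 0.348 in D8A). For 36 genes of the iron regulon the median was 0.03 in D8A replicate 1 and -0.96 in D8A replicate 2. FIT2, a wall protein that retains siderophores, had 921 and 55.3 FPKM in D8A, 2403 and 3669 FPKM in D8B and 177 and 296 FPKM in WT. FET3, the iron oxidase, had 229 and 37.1 FPKM in D8A, 362 and 539 FPKM in D8B and 97.3 and 137 FPKM in WT. For both genes D8A replicate 1 lay above and D8A replicate 2 below the WT libraries, and neither passed (adjusted p = 0.997 and 0.834). The iron-list members that fell were BIO4, BIO3 and VHT1, which make or import biotin, and HMX1, the haem oxygenase. BIO4 had 5.85 and 14.8 FPKM in D8A against 51.4 and 71.7 FPKM in WT (-2.57 ± 0.39 SE, adjusted p = 0.00994) and BIO3 6.62 and 7.81 FPKM against 26.3 and 28.8 FPKM (-1.80 ± 0.22, adjusted p = 0.00443). All 4 were lost without WT replicate 2 (adjusted p up to 0.085 for BIO4, 0.0525 for BIO3, 0.0704 for VHT1 and 0.21 for HMX1), and HMX1 without WT replicate 1.

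Sugar metabolism changed in single genes. Of 29 glycolysis and fermentation genes HXK1 and GPD1 rose and ADH5 fell, with a median of -0.06, where 5.05% of all features were called. ADH5, an alcohol dehydrogenase, was lost without either WT library (adjusted p up to 0.103). GPD1, the enzyme that starts glycerol synthesis, had 194 and 214 FPKM in D8A against 70.1 and 62.0 FPKM in WT (1.61 ± 0.31 SE, adjusted p = 0.0299), a call lost without any D8A or WT library (adjusted p up to 0.227). Of 26 hexose transporter and sensor genes HXT1 rose and HXT3 fell. HXT1, a low-affinity transporter, had 173 and 139 FPKM in D8A against 68.7 and 65.5 FPKM in WT (1.2 ± 0.22, adjusted p = 0.0225), and HXT3, also of low affinity, 53.0 and 41.8 FPKM against 193 and 176 FPKM (-1.95 ± 0.27, adjusted p = 0.00659). Both calls were lost without either WT library (adjusted p up to 0.233 and 0.0588), that of HXT1 also without D8A replicate 1, and reads of these related genes may be shared. Among 35 stress genes of Msn2 and Msn4, HXK1 and TSL1 rose and GPH1 fell, a share near the 5.05% of all features, with a median of -0.04. TSL1 was lost without either WT library or D8A replicate 1 (adjusted p up to 0.225), and GPH1 without WT replicate 2 or either D8A library (adjusted p up to 0.292). Of 22 drug resistance genes PDR3 rose and TPO2, QDR2, TPO1 and PDR5 fell, with log2 changes of -1.81, -1.60, -1.26 and -1.16. Without WT replicate 2 none of these 5 passed (adjusted p over all libraries left out up to 0.31 for PDR3, and 0.0632, 0.0793, 0.215 and 0.298 for the genes that fell). PDR3 was lost without any 1 library, PDR5 without any D8A or WT library, and TPO1 without WT replicate 1 or D8A replicate 1. FAA1, a fatty acyl-CoA synthetase, had 29.8 and 34.8 FPKM in D8A against 112 and 133 FPKM in WT (-1.89 ± 0.20, adjusted p = 0.00226) and passed whichever library was left out. Lists for DNA damage, the spindle checkpoint, cyclins, histones, autophagy, chaperones of the cytosol, mitochondrial ribosomes, mitochondrial import, peroxisomes, and purine and pyrimidine synthesis had no member past the threshold.

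The comparison of D8A with D8B asked which changes of D8A were its own. Between these strains, which carry one genotype label, 23 of 6925 features differed (0.332%), 8 higher (0.116%) and 15 lower (0.217%) in D8A. A change counted as one of D8A not seen in D8B where it passed against WT, passed in the same direction against D8B, and did not pass for D8B against WT. The rule was met by 9 features (0.13%), 4 higher (0.0578%) and 5 lower (0.0722%), or 5 when only features of 300 bp or more are counted (0.0809%). The comparisons with WT and with D8B share the D8A libraries. Without 1 library the number ran from 4 (without D8B replicate 2) to 77 (without D8A replicate 2), with 15 without D8A replicate 1, 6 without WT replicate 2 and 5 without D8B replicate 1.

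The 4 higher features were ARO10, AAD6, AAD16 and PHO89. ARO10 (chromosome IV, 1234218 to 1236125), the decarboxylase that turns aromatic keto acids into fusel aldehydes, had 138 and 205 FPKM in D8A, 29.3 and 41.4 FPKM in D8B and 59.2 and 61.2 FPKM in WT. D8A exceeded both other strains in every library, by 2.24 ± 0.27 (SE, adjusted p = 0.0212) over D8B and by 1.47 ± 0.27 (adjusted p = 0.0225) over WT on the log2 scale. The difference from D8B was lost without either D8B library (adjusted p up to 0.0944) and that from WT without either WT library (adjusted p up to 0.159). ARO9, the aminotransferase of the step before, showed 57.9 and 91.0 FPKM in D8A, 17.6 and 23.9 FPKM in D8B and 28.7 and 33.4 FPKM in WT. It rose against WT (1.2, adjusted p = 0.0459) and narrowly missed the threshold against D8B (1.77, adjusted p = 0.0538), the rise against WT was lost without any library but D8A replicate 1 (adjusted p up to 0.255), and it shares 651 bp with another feature. ARO80, the gene of their activator, had 12.4 and 14.2 FPKM in D8A, 12.6 and 14.5 FPKM in D8B and 13.3 and 17.3 FPKM in WT. Aro80 binds CCG and CCG set 7 bases apart, which occurred within 500 bases before 4 of the 15 aromatic genes (ARO9, ARO10, ARO80 and PHA2), against 5.33% of the 6000 stretches. The stretches before ARO10 and ARO9 hold several matches, some overlapping, on both strands (R64, plus strand, matches in capitals).
ARO10, chrIV:1233892-1234041, plus strand: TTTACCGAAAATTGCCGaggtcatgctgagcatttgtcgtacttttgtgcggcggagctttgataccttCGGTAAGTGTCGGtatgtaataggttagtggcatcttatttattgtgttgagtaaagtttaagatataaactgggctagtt
ARO9, chrVIII:375495-375644, plus strand: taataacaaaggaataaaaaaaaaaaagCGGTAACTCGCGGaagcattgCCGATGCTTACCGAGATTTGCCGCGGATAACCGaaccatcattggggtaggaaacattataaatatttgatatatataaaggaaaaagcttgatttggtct

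AAD6 and AAD16 lie next to each other on chromosome VI (14793 to 15431 and 14305 to 14763) and belong to the family of putative aryl-alcohol dehydrogenases. AAD6 had 159 and 155 FPKM in D8A, 32.2 and 33.0 FPKM in D8B and 51.4 and 31.2 FPKM in WT, and AAD16 152 and 164 FPKM, 33.8 and 37.5 FPKM and 57.0 and 34.1 FPKM in the same order of strains. Against D8B they were higher by 2.23 ± 0.25 (adjusted p = 0.0196) and 2.12 ± 0.26 (adjusted p = 0.0226), differences lost without either D8B library or D8A replicate 1 (adjusted p up to 0.105 and 0.124) and when libraries were centred on their medians. Their rises against WT were lost without WT replicate 2 (adjusted p up to 0.0562 and 0.0828). The pair carried nearly equal values, and reads of this family can be shared between copies. PHO89 (chromosome II, 796798 to 798522), the sodium-coupled phosphate transporter, had 226 and 270.5 FPKM in D8A, 56.5 and 72.2 FPKM in D8B and 86.1 and 110 FPKM in WT, a difference of 1.94 ± 0.24 (adjusted p = 0.0226) from D8B and of 1.33 ± 0.24 (adjusted p = 0.0222) from WT. The difference from D8B was lost without either D8B library (adjusted p up to 0.132), and that from WT without either WT library or D8A replicate 2 (adjusted p up to 0.179). PHO89 was the only one of 25 phosphate regulon genes that passed. PHO84, the main high-affinity phosphate transporter, had 788 and 862 FPKM in D8A, 529 and 679 FPKM in D8B and 741 and 721 FPKM in WT.

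Of the 5 lower features, ERG28 (chromosome V, 237570 to 238016) was the one of 300 bp or more, with D8A below D8B by 1.6 ± 0.22 (adjusted p = 0.0369), a difference lost without any library but D8A replicate 2 (adjusted p up to 0.173) and when libraries were centred on their medians. The others, YGR204C-A, YLR466C-B, YOR186C-A and YPL152W-A, are 114, 117, 210 and 99 bp long and were listed at 0 in both D8A libraries. YGR204C-A had 110 and 146 FPKM in D8B and 169 and 123 FPKM in WT, and YPL152W-A 40.6 and 108 FPKM in D8B and 62.7 and 113 FPKM in WT. The deposited FPKM of such short features is many times the middle of its own interval, so these levels are not on the scale of longer genes. YOR186C-A lies wholly within YOR186W. The difference of YLR466C-B from D8B was lost without either D8A library or D8B replicate 2 (adjusted p up to 0.13), and those of YLR466C-B, YOR186C-A and YPL152W-A were lost after quantile normalization.

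A further 3 genes of those named differed between D8A and D8B without meeting the rule. URA3, the selection marker at the PRX1 and GPX1 deletions, had 209 and 294 FPKM in D8A, 70.5 and 59.1 FPKM in D8B and 158 and 145 FPKM in WT (D8A minus D8B 1.92, adjusted p = 0.0233). FTR1, the iron permease that works with Fet3, had 133 and 95.0 FPKM in D8A, 378 and 377 FPKM in D8B and 195 and 192 FPKM in WT. TIR1, a wall mannoprotein of cold and low oxygen, had 18.6 and 9.07 FPKM in D8A, 96.2 and 123 FPKM in D8B and 22.6 and 37.9 FPKM in WT. For FTR1 and TIR1, D8A lay below both other strains in each library, and its difference from WT did not pass (adjusted p = 0.131 and 0.155). The differences of URA3, FTR1 and TIR1 from D8B were lost without either D8B library (adjusted p up to 0.159, 0.17 and 0.11), and those of URA3 and FTR1 without either WT library.

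**Figure D5:**
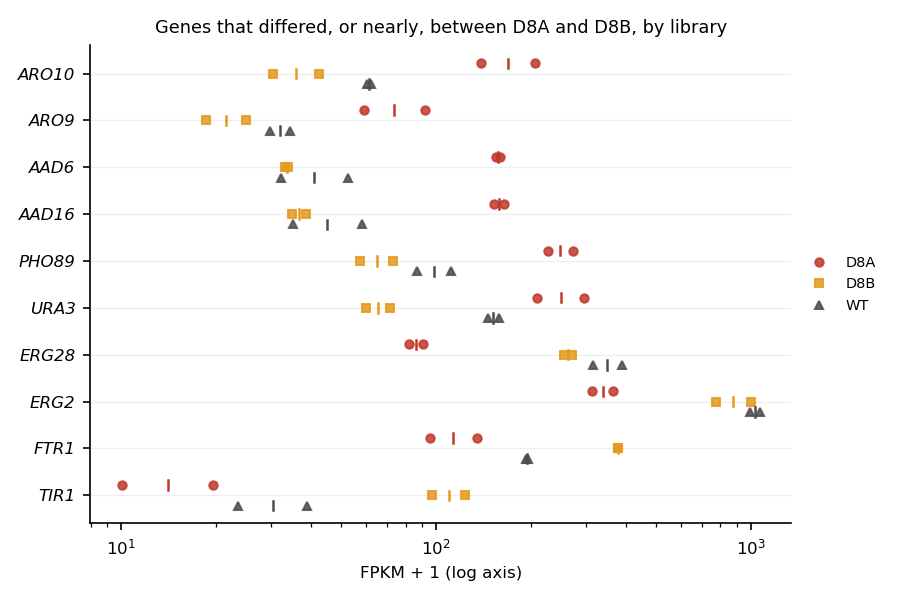
FPKM + 1 on a log x axis of genes that differed between D8A and D8B, with ARO9 and ERG2, which missed the threshold (adjusted p = 0.0538 and 0.0837), with 2 points per strain (D8A circles, D8B squares, WT triangles) and a tick at their geometric mean. D8A is highest for ARO10, ARO9, AAD6, AAD16, PHO89 and URA3 and lowest for ERG28, ERG2, FTR1 and TIR1.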

How the data were processed

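Polyadenylated RNA of 2 D8A, 2 D8B and 2 WT libraries was sequenced, and samples were grouped by title. The submitters' processing notes list build R64 and the tools TopHat2 2.0.9, Bowtie2 2.1.0 and Cufflinks 2.1.1. Per the file headers, each library's deposited table gives FPKM and a lower and upper bound. The sources used here do not state whether strand was used in counting. Of 7126 features, 7051 had the status OK in every library, and the 6925 with a mean FPKM of at least 1 were tested as log2(FPKM + 1). In limma 3.58.1 (R 4.3.3), the 6 libraries entered 1 model with a mean per strain (moderated variances with a trend, two-sided, 3 residual and 4.7 prior degrees of freedom), with Benjamini-Hochberg adjustment over all features and a threshold of 0.05. The fit was tested on simulated data. Depth was estimated from the interval bounds, of which 93.0% to 94.6% were whole multiples of 1 step (tolerance 0.02). It sets the precision, which is lowest for D8A replicate 1. Of the summed FPKM, 57.7% to 62.4% belonged to features shorter than 150 bp.

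Gene lists are described by counts and medians without a test, and 1 gene is not reported here. Named were the deleted and marker genes, CCP1 and UTH1, and the 12 largest rises and falls of D8A against WT among features of 300 bp or more with a mean FPKM of at least 10 and no overlap of libraries. The rule also took up to 10 rises and falls among the changes of D8A not seen in D8B, and up to 4 called members per list and direction. Members and lists were chosen with earlier results of these data known. Of the tested identifiers, 5937 were in the R64 annotation and 5925 had the same coordinates. Sequences are from that RefSeq assembly. Alternatives varied the pseudocount, filters, feature length, scaling, variance model, sample weights, replicate block, libraries and use of the interval midpoint.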

Additional observations from a re-analysis of the deposited data

Results flagged for a closer look

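The direct comparison of D8A with D8B found 12 named genes or features, of 23 in all, that differed between the 2 null strains, although one genotype label covers both. Of the named genes of 300 bp or more, ARO10 was higher in D8A by 2.24 on the log2 scale, AAD6 by 2.23, AAD16 by 2.12, PHO89 by 1.94 and URA3 by 1.92. TIR1 (-2.97), FTR1 (-1.74) and ERG28 (-1.6) were lower in D8A than in D8B. The short features YGR204C-A (-6.99), YPL152W-A (-6.07), YLR466C-B (-5.45) and YOR186C-A (-3.25), listed at 0 in both D8A libraries, make up the rest of the named features, and their values are differences of log2(FPKM + 1) that give no fold. YGR204C-A kept its call under every alternative run, while those of the 8 named genes of 300 bp or more were lost without either D8B library. The part of library depth in these zeros was not tested, and D8A replicate 1 was the shallowest library. The other 11 features fell outside the naming rule and are given after their values were seen. YCL021W-A had 61.3 and 60.5 FPKM in D8A, 0.41 and 0 FPKM in D8B and 35.7 and 46.5 FPKM in WT (D8A minus D8B 5.71, limma adjusted p = 3.7e-05). YBR013C and YBR012C were listed at 0 in both D8A libraries, against 91.8 and 68.2 FPKM and 54.9 and 112 FPKM in D8B (-6.32 and -6.31). In WT, YBR013C was listed at 0 in both libraries and YBR012C had 0 and 0.46 FPKM. YAR070C (2.65) and YHR214C-E (1.79) were also higher in D8A, and YHL008C (-2.24), YOR203W (-2.2), YGR114C (-1.92) and YLR349W (-1.43) lower, while the short features YHL015W-A and YAR035C-A were listed at 0 in D8A. YHL015W-A was also listed at 0 in WT, where YAR035C-A had 334 and 453 FPKM. For YCL021W-A, YBR013C, YBR012C, YHL015W-A, YHL008C, YGR114C, YAR070C, YHR214C-E and YOR203W the change against WT passed in D8B and not in D8A.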

How the results depend on the processing

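The 350 features that differed between D8A and WT became 184 with no filter on low values, 801 when only features of 300 bp or more entered the fit, and 616 with robust moderation. Leaving out 1 library gave 90 to 473. The 23 features that differed between D8A and D8B became 11 with no filter, 197 from features of 300 bp or more, 116 with robust moderation, 10 with sample weights and 84 with the interval midpoint, and 10 to 104 without 1 library. The 9 changes of D8A not seen in D8B became 3, 57, 35, 4 and 26 under those settings in that order, and 4 to 77 without 1 library. Deviations of same-numbered libraries had r = -0.15 for D8A with WT, -0.25 for D8A with D8B and 0.33 for D8B with WT, so replicate numbers were not taken as pairs. A replicate block gave 187, 9 and 4 calls, and a crossed block, added after the data were seen, gave 674, 91 and 32. The causes of these shifts were not tested, except that dropping short features changes the number tested. Centring or quantile normalization gave 469 and 487 features for D8A against WT, and the other settings 244 to 521. Of 2789 values of named genes under these alternatives 2270 kept their direction and side of the threshold, 505 no longer passed, 14 newly passed and 0 reversed. Depth limits D8A replicate 1 most.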
